A study of Sus scrofa with 50 samples.

Results

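The granins, the prohormone convertases and their cofactors, and proenkephalin make up the cargo and the processing enzymes of the regulated secretory pathway. They were described here across 5 tissues of Korean minipigs (Sus scrofa). A member was taken to be every assembled transcript whose best Swiss-Prot hit, at an E value of at most 1e-10, was 1 of 10 named protein entries, and TPM (a transcript's length-normalised share of its library) were added up over the transcripts of each entry. Of the 10 entries 8 were found, in 12 of 57085 transcripts, among 14412 genes defined in the same way. The 8 were CMGA (chromogranin A, gene CHGA), SCG2 (secretogranin II), SCG3 (secretogranin III), 7B2 (gene SCG5), NEC2 (prohormone convertase of gene PCSK2), CBPE (carboxypeptidase E, gene CPE), PCS1N (proSAAS, gene PCSK1N) and PENK (proenkephalin). SCG1 (chromogranin B, gene CHGB) and NEC1 (gene PCSK1) are not analysed here.

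Peptide hormones and neuropeptides are made as larger precursors, sorted into dense-core granules, cut at paired basic residues by the prohormone convertases, and trimmed by carboxypeptidase E. Granins are acidic proteins that condense in the granule and help to form it, while 7B2 and proSAAS bind and restrain the convertases until the granule is mature. In the pituitary this machinery turns POMC (Swiss-Prot entry COLI) into ACTH and melanotropin, and proenkephalin is the precursor of the enkephalins, opioid peptides that are made in the nervous system and also in some mesenchymal cells.

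RNA was measured in backfat, brain, loin, lymph and tenderloin, as the labels name the tissues, of 10 animals, which gave 50 libraries. S0235, S0242, S0276, S0309 and S0326 carry the ET label, and S0349, S0355, S0377, S0384 and S0385 the L label. What the letters ET and L stand for, and the animals' age, treatment and brain region, are not given in the sources used here. TPM keeps no read depth, so the precision of each value comes from the spread between animals. Libraries that stood apart from their label were treated first: backfat and loin of S0355 and lymph of S0235 were left out, brain of S0235 and of S0355 is shown as single values, and 45 libraries entered the tests.

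The brain label was checked against its markers. In the 8 brain libraries kept, POMC (entry COLI) lay between 5271 and 77973 TPM, prolactin (PRL) between 805 and 40121 and the shared subunit of the glycoprotein hormones (GLHA) between 2085 and 28265, while myelin basic protein (MBP) reached at most 80.1. The libraries of S0235 and S0355 held MBP at 30538 and 37999 TPM, with COLI at 6.92 and 7.75. The 8 libraries are therefore called brain-labelled below, and brain in the comparisons means these 8. Their values describe tissue rich in pituitary hormone transcripts and poor in myelin transcripts, and are not to be read as levels of brain at large. The libraries of S0235 and S0355 carry the same label and are named where they are meant.

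Of the 12 member transcripts, 10 came from brain assemblies, and those of 7B2 and PCS1N came from kidney assemblies. CMGA had 3 transcripts, and 1 of 2374 bases that covered residues 10 to 446 of the pig protein at 97.95% identity held 97.86% of its brain TPM. A second CMGA transcript of 1900 bases held 11.56% of its TPM in tenderloin, where CMGA itself was near 0. SCG2 (3275 bases, residues 1 to 616 at 99.351% identity) and NEC2 (5119 bases, residues 1 to 638 at 99.53%) matched pig proteins over their length. SCG3 was held by a transcript of 4382 bases matching the bovine protein from residue 1 to 471, with a longer one of 9967 bases at 25.47% of its tenderloin TPM. CBPE, 7B2, PCS1N and PENK matched entries of cattle or humans in their main transcripts, the last 2 at the lowest identities of 88.837% and 88.679%. PCS1N had the weakest main hit, at an E value of 1.62e-34.

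RefSeq places these genes on 7 chromosomes of the pig build Sscrofa11.1. CHGA lies at chr7:114345542-114357799, SCG2 at chr15:125420773-125426303, PCSK2 at chr17:25681424-25920690, CPE at chr8:43568744-43695475, PCSK1N at chrX:42947688-42952222 and PENK at chr4:75525497-75530403. SCG3 (chr1:120045302-120090035) and SCG5, the gene of 7B2 (chr1:136525920-136590021), share chromosome 1. The assembled transcripts were not placed on the genome here.

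Of the 8 members, 7 were higher in the brain-labelled libraries than in each of the other 4 tissues. These 7 were CMGA, SCG2, SCG3, 7B2, NEC2, CBPE and PCS1N. For them each of the 8 brain-labelled libraries lay above every library kept of the other tissues, but how many of all genes separate in this way was not counted. PENK was the exception, with backfat and brain ranges that overlapped. Of all 13445 genes tested, 36.3% were called higher in brain than in each other tissue by limma on log2(TPM + 1), with Benjamini-Hochberg adjustment and a threshold of 0.05. The median over the 8 members of the smallest of the 4 brain contrasts was 5.24 on the log2 scale, against 0.00617 over all genes. In bulk tissue, fewer cells of a type and less RNA per cell cannot be told apart.

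**Figure D1:**
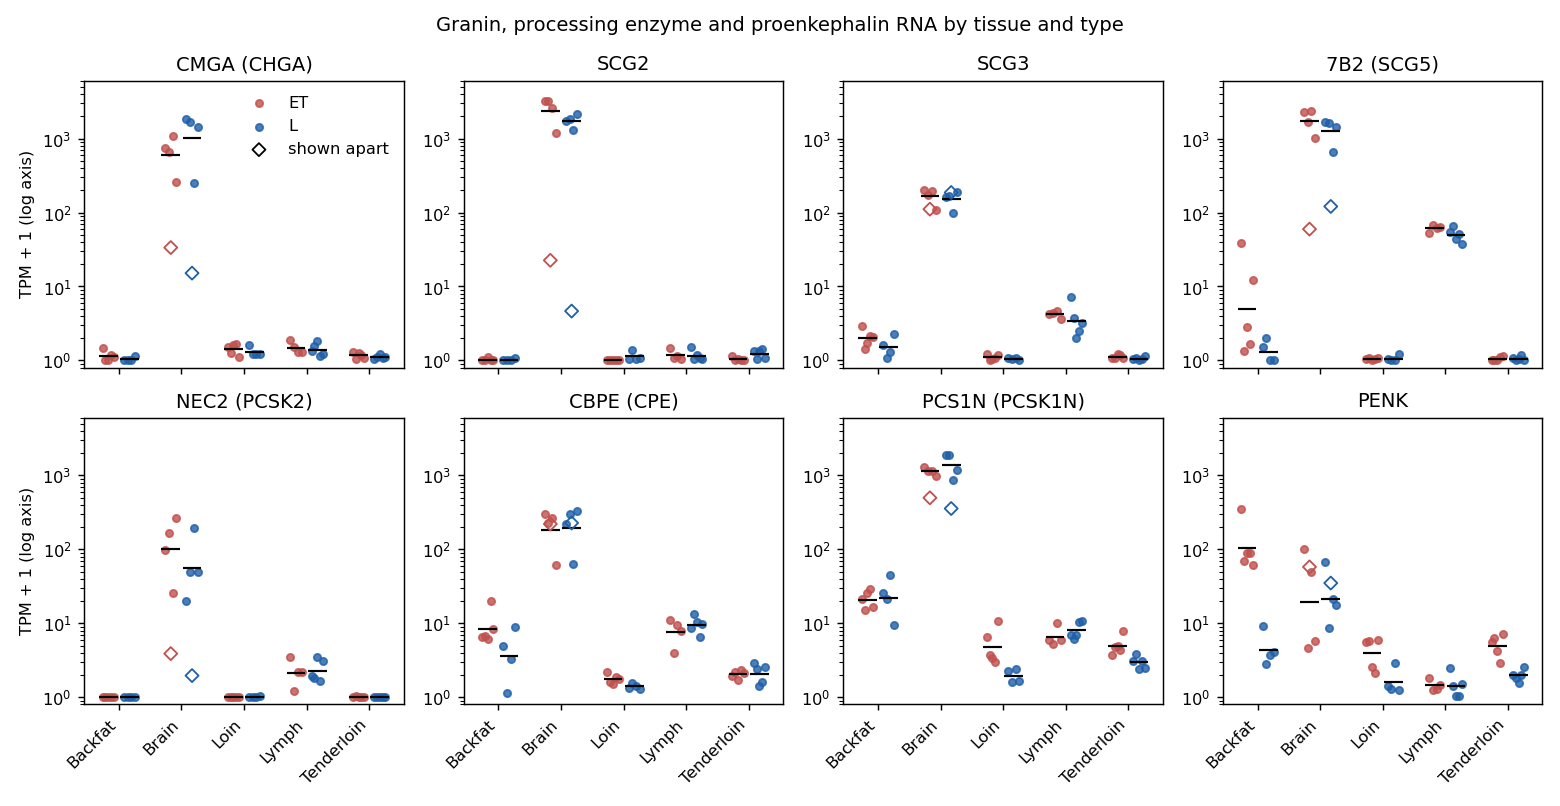
TPM + 1 on a log axis of the 8 members in each tissue; points are libraries (ET red, L blue), lines are means of log2(TPM + 1), and open diamonds are the brain libraries of S0235 and S0355. SCG2, CMGA, 7B2 and PCS1N stood at 246 to 3205 TPM in the brain-labelled libraries, 7B2 at 37.1 to 66.0 in lymph, and PENK at 61.3 to 348 in ET backfat.

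Among the granins SCG2, a precursor of secretoneurin, was the most abundant. Its brain-labelled libraries held 3175, 3205, 2566 and 1186 TPM in ET and 1743, 1860, 1291 and 2154 TPM in L, a mean of 2147 ± 780 (SD, n = 8). In every other tissue no library exceeded 0.502 TPM, and the log2 fold change over lymph, the smallest of the 4, was 10.76 (SE 0.14, limma adjusted p = 1.28e-41). CMGA, a granule core protein, stood at 733, 648, 1097 and 258 TPM in ET and at 1846, 1662, 246 and 1422 TPM in L. S0326 and S0384 were the low libraries in their types. The CMGA mean was 989 ± 616 TPM (SD, n = 8), no library outside brain exceeded 0.889 TPM, and the log2 fold change over lymph was 9.09 (SE 0.24). SCG3, which binds CMGA at the granule membrane, was lower and steadier, from 97.0 to 202 TPM with a mean of 162 ± 39.6, and its nearest tissue was lymph at 2.97 ± 1.51 TPM (SD, n = 9; log2 fold change 5.39, SE 0.18).

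NEC2, the convertase that cuts POMC into its smaller peptides, showed the widest spread of the 7 brain-high members. It stood at 98.1, 163, 24.6 and 262 TPM in ET and at 19.3, 48.5, 194 and 48.8 TPM in L, a range of 13.5-fold and a coefficient of variation of 83.4%. The 2 highest NEC2 libraries, S0326 and S0384, were those with the lowest CMGA. In backfat, loin and tenderloin no library exceeded 0.0542 TPM of NEC2, and lymph stood at 1.35 ± 0.834 (SD, n = 9; brain minus lymph 5.10, SE 0.29). CBPE, the exopeptidase that removes basic residues after the convertase cut, stood at 220 ± 105 TPM in brain (59.9 to 328), at 8.01 ± 2.75 in lymph and at 6.34 ± 5.40 in backfat. Its smallest log2 fold change was 4.47 over lymph (SE 0.32, limma adjusted p = 3.96e-16).

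Both binding proteins of the convertases were abundant. 7B2, the chaperone of the NEC2 precursor, reached 2308, 1680, 2373 and 1024 TPM in ET and 1670, 1620, 664 and 1421 TPM in L (mean 1595 ± 579, n = 8). The ratio of 7B2 to NEC2 in TPM, which is per transcript length, was 14.9 between the means and ran from 3.43 in S0384 and 3.91 in S0326 to 86.3 in S0349 and 96.6 in S0309. PCS1N, whose product inhibits the other convertase NEC1, varied least among the abundant members, from 862 to 1903 TPM with a mean of 1306 ± 389. Together the 8 members took between 0.3437% and 0.8223% of the TPM in the brain-labelled libraries.

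Across the 8 brain-labelled libraries the members did not share 1 order. S0326 and S0384 held the lowest values of CMGA, SCG2, SCG3, 7B2, CBPE and PCS1N, and the highest of NEC2. These libraries also held the highest oxytocin-neurophysin (NEU1) values, 919 and 945 TPM, with the remaining 6 between 10.5 and 319. Their prolactin (PRL) lay at 1331 and 805 TPM, below the 10310 to 40121 of the remaining 6. POMC (COLI) was at 77973 TPM in S0326 and 21736 in S0384, the latter inside the 5271 to 22387 of the remaining 6. These genes were chosen after their values were seen, their part in the members' spread was not tested, and 1 of the libraries lies in each type. TPM sum to a fixed total, so the shares within a library are not independent. PENK varied most, at 100.4, 3.62, 49.0 and 4.83 TPM in ET and 65.6, 7.57, 20.2 and 16.5 TPM in L, a range of 27.7-fold, and did not follow the other members.

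**Figure D2:**
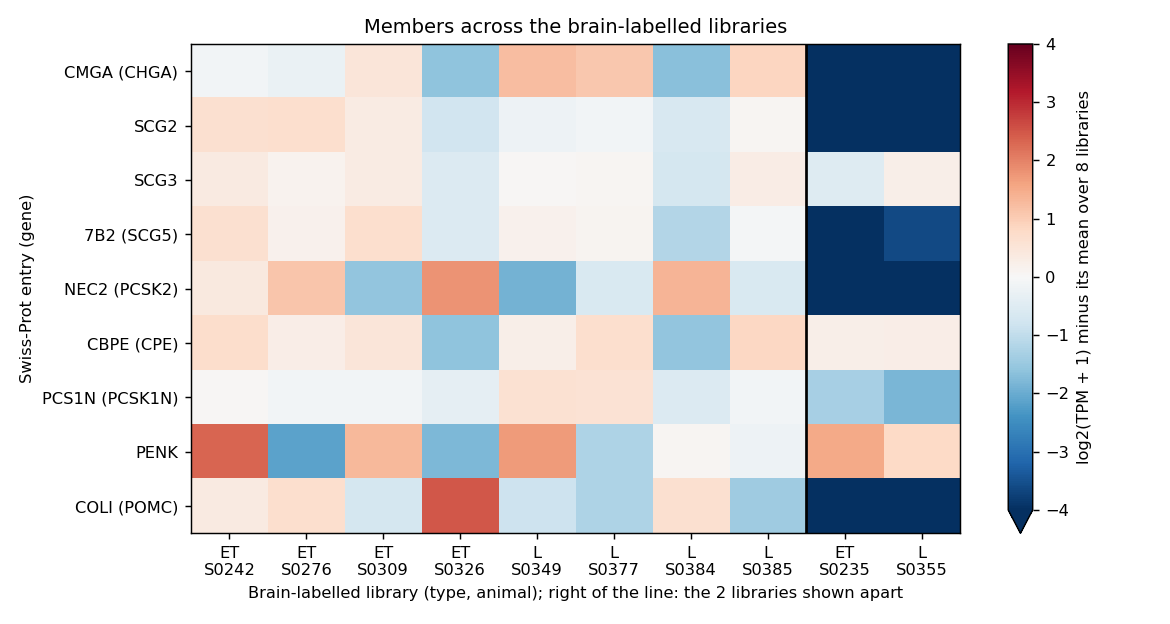
Difference of log2(TPM + 1) from the mean of the 8 brain-labelled libraries for each member and POMC (COLI); columns are libraries, the scale stops at 4 units, and the 2 libraries right of the line are those of S0235 and S0355. S0326 and S0384 are low in CMGA and CBPE and high in NEC2, and SCG3, CBPE and PENK keep their level right of the line.

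In the myelin-rich brain libraries of S0235 and S0355 the members parted. SCG2 was at 21.6 and 3.65 TPM, CMGA at 32.6 and 14.2, NEC2 at 2.90 and 0.97, and 7B2 at 58.7 and 119.9, all below the lowest of the 8 brain-labelled libraries. SCG3 at 110 and 186 TPM, CBPE at 220 and 227 and PENK at 56.9 and 34.0 lay inside the range of the 8. PCS1N, at 497 and 356 TPM, was below their lowest value of 862 but above every library of the other tissues. NEC2 in S0355 (0.97) lay inside its lymph range of 0.220 to 2.53 TPM, and in S0235 (2.90) above it. 7B2 in S0235 (58.7) lay inside its lymph range of 37.1 to 66.0 TPM, and in S0355 (119.9) above it. These are 2 single libraries of different types, so no test was made.

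Outside brain, 26 of 48 member contrasts between pairs of tissues passed. Between backfat and loin 5 of 8 members were called (75.3% of all genes), between backfat and lymph 5 (72.4% of all genes), between backfat and tenderloin 5 (75.4%), between lymph and loin 5 (80.8%) and between lymph and tenderloin 6 (81.8%). Between tenderloin and loin limma called 0 of 8, with 0 at an unadjusted p under 0.05, where 23.2% of all genes passed. CMGA, SCG2, SCG3, 7B2 and NEC2, 5 of the 8, were under 1 TPM in every loin and tenderloin library, so they could hardly differ on this scale. Apart from tenderloin against loin, the differences between these 4 tissues were thus broad over all genes. In no pair was the share of members called above that of all genes.

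Lymph held the second level of 7B2 at 54.5 ± 10.1 TPM (SD, n = 9), from 37.1 to 66.0, while loin and tenderloin stayed at or below 0.203 in every library. The log2 fold change of 7B2 in lymph over loin was 5.71 (SE 0.35, limma adjusted p = 1.12e-18). NEC2, the partner of 7B2, was at 1.35 TPM there and SCG3 at 2.97, both called above backfat, loin and tenderloin. CBPE did not differ between lymph and backfat beyond its spread (backfat minus lymph -0.61, SE 0.31, adjusted p = 0.0762; without S0385 -0.83, adjusted p = 0.0231), and both were above loin and tenderloin. CMGA and SCG2 were below 1 TPM in all libraries of these 4 tissues, and 0 of their contrasts passed, although CMGA in backfat minus loin was called with median-ratio scaling (-0.48, adjusted p = 0.0447).

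Backfat was the second tissue of PCS1N, at 22.2 ± 9.97 TPM (SD, n = 9; 8.56 to 43.4), above lymph (6.63 ± 2.18), tenderloin (3.08 ± 1.61) and loin (2.91 ± 2.93). The step of PCS1N from lymph to tenderloin (0.92, SE 0.22) was not called with median-ratio scaling (0.25, adjusted p = 0.339). 7B2 in backfat rested on 2 ET libraries, S0235 at 38.0 and S0326 at 11.3 TPM, and the other 7 lay between 0 and 1.81. PENK had its highest single value of any tissue there. Over both types PENK averaged 74.7 ± 109 TPM in backfat (SD, n = 9), 33.5 ± 35.1 in brain (n = 8), 2.63 ± 2.08 in tenderloin (n = 10), 2.21 ± 1.99 in loin (n = 9) and 0.491 ± 0.451 in lymph (n = 9), and the backfat mean was 40.5 ± 40.3 without S0235. The upper places depended on type: ET backfat (131 TPM) stood above ET brain (39.5), whereas L backfat (3.91) stood below L brain (27.5). The contrast of brain minus backfat averages these opposite differences (-0.08, SE 0.43, 95% interval -0.95 to 0.79, limma adjusted p = 0.870). Averaged over types, PENK did not differ beyond the spread between tenderloin and loin (0.30, adjusted p = 0.684) or between lymph and loin (lymph minus loin -0.83, adjusted p = 0.0680; -1.19 and 0.00939 with median-ratio scaling), whereas backfat lay above tenderloin by 2.77 (SE 0.41, adjusted p = 9.06e-08).

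The rest of the granule pathway was read from lists of related genes. Of all genes 36.3% were higher in brain than in each other tissue, and 19.7% with median-ratio scaling. Of 22 dense-core granule and exocytosis genes tested, 21 were higher in brain than in each other tissue (19 with median-ratio scaling), with a median smallest contrast of 3.56. The calcium sensor SYT4 (log2 fold change over the nearest tissue 7.23), the SNARE protein SNP25 (8.64), the granule protein PTPRN (6.27) and SYT5 (6.35) had the smallest p, and RAB3D did not pass. Of 5 transcription factors of neuroendocrine cells 4 were higher, among them INSM1 (6.46), ST18 (3.98) and MYT1 (4.01). The repressor of neuronal genes REST did not pass, with 9.28 TPM in brain and 24.9 in lymph.

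Other prohormone-processing enzymes were spread over tissues. Of 13 tested, 7 were higher in brain than elsewhere, beside 36.3% of all genes, the median smallest contrast being 0.822. With median-ratio scaling 3 were, near the 19.7% of all genes called then. The enzyme of N-terminal pyroglutamate QPCT (2.74) and the ascorbate-recycling cytochrome CY561 (1.85) were among those 3. The calls of FURIN (0.91), a convertase of the constitutive pathway, and of MBTP1 (0.82) were lost with that scaling. The amidating enzyme AMD stood at 171 TPM in brain and at 103 in backfat. Of 12 opioid-related genes 5 were higher in brain, near the 36.3% of all genes, with a median smallest contrast of -0.348. With median-ratio scaling 3 were, where 19.7% of all genes were called. The 5 called without scaling included the endothelin-converting enzyme ECE2 (5.09), POMC as COLI (11.33) and the kappa receptor OPRK (4.68), while OGFR (0.44) lost its call with it. Of 7 other neuropeptide precursors, 5 were higher (36.3% of all genes), among them NEU1 (7.08), neurotensin as NEUT (5.50), NEU2 (4.48) and CART (3.73).

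Of the 22 member comparisons between the types, proenkephalin in backfat had the largest log2 fold change. PENK was at 348, 69.1, 89.5, 88.7 and 61.3 TPM in ET (S0235, S0242, S0276, S0309, S0326) and at 8.10, 1.79, 2.68 and 3.07 TPM in L (S0349, S0377, S0384, S0385). Every ET library was above every L library. The means were 131 ± 122 (SD, n = 5) and 3.91 ± 2.84 TPM (SD, n = 4), and the log2 fold change was 4.56 (SE 0.50, limma adjusted p = 0.00324). Without S0235, the highest library, it was 4.13 (adjusted p = 0.00424). Of all 12110 genes tested in backfat 8.57% were called, and PENK was the only called member of the 4 that passed the filter of a mean of 1 TPM.

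The other 3 members tested in backfat did not pass. 7B2 was at 38.0, 0.354, 1.81, 0.687 and 11.3 TPM in ET and at 0.496, 1.03, 0 and 0 in L (log2 fold change 1.92, SE 0.87, adjusted p = 0.186), and its groups overlapped. CBPE was at 8.57 ± 6.03 against 3.55 ± 3.25 TPM (1.25, SE 0.55, adjusted p = 0.177). PCS1N, at 20.5 ± 5.85 and 24.4 ± 14.4 TPM, had a log2 fold change of -0.08 with a 95% interval of -0.95 to 0.79. CMGA, SCG2, SCG3 and NEC2 did not reach the filter in backfat, and 7B2, with an L mean of 0.381 TPM, met it through its ET libraries.

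PENK was also called higher in ET muscle, at far lower levels, and in both muscles its L mean was under 1 TPM, so that it met the filter through the ET libraries. In tenderloin it was at 4.54, 5.43, 3.21, 1.90 and 6.22 TPM in ET and at 0.976, 0.850, 0.571, 1.03 and 1.57 in L, with no overlap (log2 fold change 1.34, SE 0.24, limma adjusted p = 0.0238; 1.63% of 10851 genes called). The tenderloin call was lost without S0242, S0326, S0355 or S0377, at adjusted p from 0.0532 to 0.0801. In loin PENK was at 4.59, 4.78, 1.59, 1.13 and 4.88 TPM in ET and at 0.432, 0.307, 1.93 and 0.257 in L, so that S0384 lay inside the ET range (1.31, SE 0.37, adjusted p = 0.0205; 31.4% of 10571 genes called). The loin call was lost without S0326 (adjusted p = 0.0530), S0377 (0.0607) or S0385 (0.0615). With the loin library of S0355 the log2 fold change was 0.58 (adjusted p = 0.659). That library held the skeletal muscle marker KCRM at 0.638 TPM, against at least 17145 in the other loin libraries, and the adipocyte marker ADIPO at 1139. It therefore does not serve as a further muscle library.

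PCS1N in loin went the same way, at 5.55, 2.69, 2.38, 2.03 and 9.63 TPM in ET and at 1.25, 0.593, 1.40 and 0.665 in L, with every ET library above every L library (1.31, SE 0.34, limma adjusted p = 0.0162). With the loin library of S0355, low in KCRM and high in ADIPO, it was 0.73 (adjusted p = 0.503). In tenderloin PCS1N spanned 2.76 to 6.89 TPM in ET and 1.41 to 2.82 in L (0.75, SE 0.21, adjusted p = 0.0861). PENK and PCS1N were the only members above the filter in loin, and the L mean of PCS1N there was 0.977 TPM, so it too met the filter through the ET libraries. CBPE in tenderloin was at 1.06 in ET and 1.17 TPM in L (-0.03, 95% interval -0.48 to 0.42).

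**Figure D3:**
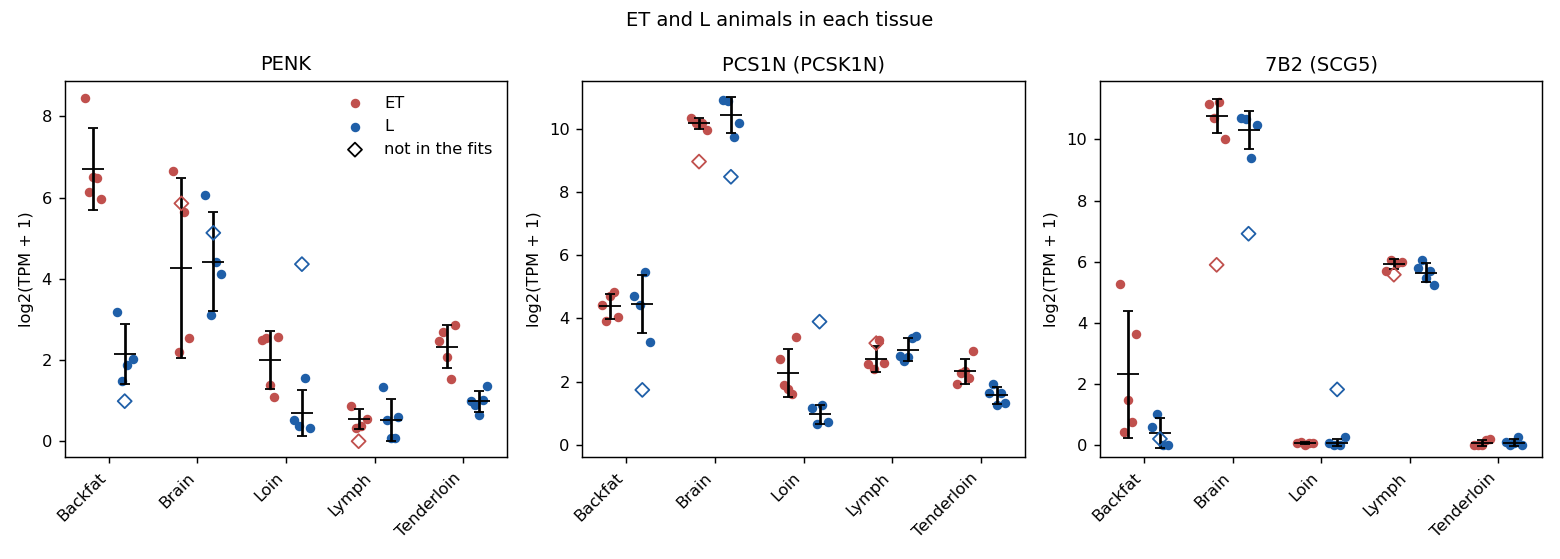
log2(TPM + 1) of PENK, PCS1N and 7B2 in ET (red) and L (blue) libraries of each tissue; points are libraries, bars are means with SD, and open diamonds are the 5 libraries outside the fits. PENK separates the types in backfat (61.3 to 348 against 1.79 to 8.10 TPM) and tenderloin. The types overlap in brain and in lymph, where PENK averaged 0.467 TPM in ET and 0.510 in L.

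In brain and lymph no member differed between the types by limma. In brain 0 of 8 members and 0 of 13095 genes passed (0% called), with 0 members and 1079 genes at an unadjusted p under 0.05. CMGA averaged 684 ± 344 TPM over the ET libraries and 1294 ± 720 over the L ones (SD, 4 libraries per type; log2 difference -0.75, 95% interval -2.27 to 0.78), and at -1.43 without S0384 (adjusted p = 0.425). For PENK the brain value was -0.16 with an interval of -2.52 to 2.21, wide enough to hold the tenderloin difference. The summed pituitary hormone markers were at 47899 to 82994 TPM in ET and 20971 to 52477 in L, and their part in the brain comparison was not tested. In lymph 0 of 5 members and 0 of 11980 genes passed (0% called), with 0 members and 525 genes at an unadjusted p under 0.05. The lymph 7B2 values were 60.1 ± 6.31 (n = 4) and 50.1 ± 10.8 TPM (n = 5), a log2 fold change of 0.28 with a 95% interval of -0.11 to 0.67.

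Whether the gap between ET and L varied over the tissues was tested next. By limma's F test 2 of 8 members passed, PENK (adjusted p = 0.000356) and PCS1N (adjusted p = 0.0188), against 21.7% of all genes. The PENK difference between the types was larger in backfat than in tenderloin by 3.22 on the log2 scale (SE 0.81, adjusted p = 0.00626; 12.6% of all genes called), and in loin minus tenderloin it was -0.03 (SE 0.81). For 7B2 the backfat difference exceeded that of tenderloin by 1.93 (adjusted p = 0.0506), and with a replicate block for the animal by 1.89 (adjusted p = 0.0477). No tenderloin library exceeded 0.202 TPM of 7B2, so this contrast largely restates the backfat difference. Within backfat that difference was not called (limma adjusted p = 0.186). No single contrast of PCS1N passed, the 4 lying between -1.05 (lymph minus tenderloin) and 0.56 (loin minus tenderloin). The PCS1N call was lost without S0326 (adjusted p = 0.124), without S0377 (0.113) and with all 50 libraries (0.738).

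Some marker genes of other cells also differed between the types. Of all genes tested, 8.57% were called in backfat, 31.4% in loin and 1.63% in tenderloin. In backfat 4 of 6 fibroblast and matrix markers were higher in ET, namely LUM (log2 fold change 2.75), CO3A1 (4.65), CO1A1 (4.23) and CO1A2 (3.88), and the summed list spanned 7943 to 29837 TPM in ET and 1038 to 3855 in L. Of 5 adipocyte markers 4 were higher there, PLIN1 (4.20), ADIPO (3.20), LEP (5.74) and CIDEC (4.49), with sums of 8009 to 17913 and 478 to 7362 TPM, and LEP was at or below 0.0281 TPM in all 4 L libraries, so it was tested only through its ET level. Of 5 lymphocyte markers tested in backfat, PTPRC (2.67), CD3E (1.42) and CD2 (1.55) were higher and CD79A (-0.999) was lower in ET. In the L libraries PTPRC was at most 1.33 TPM, CD3E at most 0.607 and CD2 at most 1.04. PTPRC, CD3E and CD2 thus met the filter through their ET libraries and could hardly be called lower there. CD2 lost its call with median-ratio scaling, and the summed list overlapped (23.1 to 104 TPM in ET and 39.7 to 120 in L). The fibroblast list was also higher in loin (6 of 6, median 2.03; sums of 161 to 930 TPM in ET and 125 to 231 in L) and tenderloin (4 of 6, median 1.44; 494 to 710 and 189 to 226), where 0 of 2 adipocyte markers tested passed. Of 5 Schwann cell markers 0 passed in backfat, and 2 of 3, MYP0 (1.60) and PMP22 (0.80), in loin. Their part in the PENK result was not tested.

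Of all genes tested in backfat 8.57% were called between the types. The opioid list lay near that share, with 1 of 10 genes tested higher in ET beside PENK. This was the nociceptin receptor OPRX, at 16.2 to 68.0 TPM in ET and 0.112 to 11.7 in L, without overlap (log2 fold change 3.48, SE 0.62, limma adjusted p = 0.0105). Among the processing enzymes QPCT (27.7 ± 7.42 against 6.64 ± 2.16 TPM; 1.92, adjusted p = 0.00408) and the secreted carboxypeptidase CBPZ (172 ± 76.3 against 40.4 ± 25.3; 2.29, adjusted p = 0.0348) were higher, 2 of 13 tested, and CBPZ lost its call with median-ratio scaling. None of 11 granule and exocytosis genes passed there by limma. In loin 4 of 9 genes of the opioid list were lower in ET, with a list median of -0.16 against -0.23 over all genes, of which 25.2% were called lower. The 4 were POMC as COLI (-1.05), OGFR (-1.32), and the enkephalin-cleaving peptidases THOP1 (-0.87) and DPP3 (-0.90). FURIN (-1.08), MBTP1 (-0.77), QPCTL (-0.85, lost with scaling) and VAMP2 (-0.98) were lower as well. The loin median over all genes was 0.04 after scaling. In tenderloin 0 of 9 opioid genes, 0 of 11 enzymes and 0 of 9 granule genes passed by limma, where 1.63% of all genes were called.

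**Figure D4:**
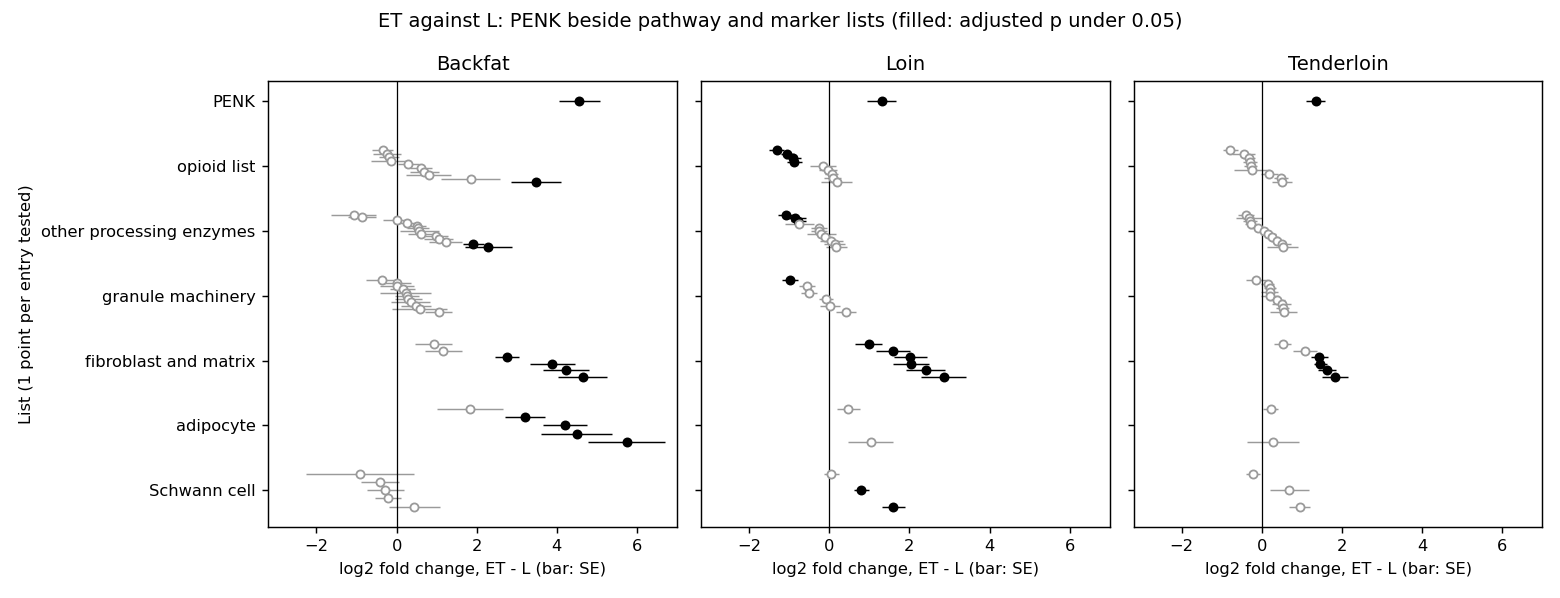
log2 fold change of ET minus L with its SE for PENK and the genes of 6 lists in backfat, loin and tenderloin; filled points have an adjusted p under 0.05. PENK at 4.56 in backfat stands beside fibroblast markers of up to 4.65 and adipocyte markers of up to 5.74 (LEP, near 0 in L), and at 1.31 and 1.34 in the muscles, with fibroblast markers of up to 2.86 and 1.82.

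The patterns most like each member were found by Pearson's r of log2(TPM + 1) over the 45 libraries among 13444 other genes, as a description without a test. The tissue difference dominates these values, since the libraries share tissues and animals. SYT4 (0.9987), GBRG2 and TICN3 were nearest to SCG2. SIDT1 (0.9972), AINX and AP1M2 were nearest to CMGA, and F184A (0.9894), APLP1 and GASP1 to SCG3. The nearest to NEC2 were UNC5C (0.9835), PPM1E and LRC4B, and to CBPE ITA3 (0.9754), CAC1C and WDR6. RFIP1 (0.9739), F167A and CCD30 were nearest to 7B2, and CAH11 (0.9818), TTC8 and MAGD4 to PCS1N. Among the 3 nearest to PENK were GLT16 (0.8812) and MARK1 (0.8603). Over the 37 libraries that are not brain, the 3 nearest included the adipocyte and vascular amine oxidase AOC3 (0.9370) and the matrix protein SVEP1 (0.9347).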

How the data were processed

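The deposited values are TPM of assembled transcripts, made by the authors with Trimmomatic 0.36 and Salmon 1.10.0, and Sscrofa11.1 is the build named, per the submitters' processing notes. Per the labels' protocols, TRIzol RNA went into stranded mRNA-seq. From the deposited annotation, the top BLASTX hit named each transcript's Swiss-Prot entry (E at most 1e-10; 32153 transcripts used; repeat, retroviral and non-animal hits left out), and TPM were summed per entry. Entry names come from the closest described protein, often of another species.

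The log2(TPM + 1) values were tested by limma 3.58.1 (R 4.3.3; trended variance, two-sided) over genes with a mean of at least 1 TPM, adjusted by Benjamini-Hochberg over all genes tested and called under 0.05. A fold change on this scale understates low genes. 1 fit of 10 group means over 45 libraries gave tissue contrasts and the interaction, and each tissue had its own ET and L fit. The script was tested on simulated data. SE and intervals (95%) come from the moderated variance.

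Animals gave all tissues, so animal numbers pair libraries: deviations from group means correlated at a median r of 0.152 for the same animal (84 pairs) and -0.018 for different animals (725 pairs). Alternatives were a pseudocount of 0.1, no filter, median-ratio scaling, 1 transcript per gene, E at most 1e-50, all 50 libraries, leaving out each animal, and a replicate block. All members are named, and of each list up to 4 called genes per direction and comparison with the smallest p; some genes this rule names are not reported here. For brain contrasts the largest of the 4 p-values ranks them. The members and lists were chosen with earlier results of these data known.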

Additional observations from a re-analysis of the deposited data

Results flagged for a closer look

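Of 41 groups of 4 or 5 libraries checked for a library far from the others, 3 held one, where chance flags about 1 in 20. Chromogranin A (CMGA) in L brain was at 246.1 TPM in S0384 against 1422 to 1846 in the other 3. Carboxypeptidase E (CBPE) in ET backfat was at 19.26 TPM in S0309 against 5.077 to 7.267 in the other 4. PENK in ET backfat was at 348 TPM in S0235 against 61.29 to 89.47 in the other 4.

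By limma's F test of the interaction, the type difference was called as depending on tissue for PENK (adjusted p = 0.000356) and for PCS1N (adjusted p = 0.0188). These are 2 of 8 members, near the 21.7% of all genes called. The PCS1N call was lost without S0326, without S0377 and with all 50 libraries, and no single contrast of PCS1N passed. PENK was higher in every ET library than in every L library of backfat and tenderloin, and in the brain and lymph libraries the types overlapped. In lymph PENK averaged 0.467 TPM in ET and 0.510 in L, under the filter, so it was not tested between the types within that tissue.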

How the results depend on the processing

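Of 1805 values recomputed under the alternatives for 110 single results, 1772 kept their direction and side of the threshold, 19 gained a call and 14 lost one, and none changed sign while called. The 7 members stayed higher in brain than in each other tissue with a replicate block (7 of 8), and 6 with E at most 1e-50, which removes PCS1N, and the block left 26 of 48 contrasts between other tissues and 2 members in the interaction. It changed no other call than that of 7B2 given above. For ET against L in loin the count of 2 members became 1 with E at most 1e-50, 0 with all 50 libraries, and 1 to 2 without each replicate. In tenderloin it was 0 to 1 without each replicate. For the interaction it was 1 with E at most 1e-50, 1 with all 50 libraries and 1 to 3 without each replicate, where CMGA passed without S0384 (adjusted p = 0.00732) and SCG2 without S0326 (0.0138). Scaling moved the median of all genes from 1.33 to 0.25 for brain minus tenderloin and from 0.29 to 0.05 for ET minus L in backfat. The genes called between the types split into 912 up and 126 down in ET for backfat (529 and 238 after scaling) and into 652 up and 2665 down for loin (1341 and 1077). Low members have no depth behind their TPM.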

Other observations

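The libraries left out of the fits differed from their labelled tissue in some members. The loin library of S0355 had PENK at 19.5, PCS1N at 13.9, CBPE at 3.59 and 7B2 at 2.54 TPM, all above the other 9 loin libraries, whose highest values were 4.88, 9.63, 1.18 and 0.203. It also held ADIPO at 1139 TPM and the skeletal muscle marker KCRM at 0.638, while the backfat library of S0355 held ADIPO at 3.33 and KCRM at 23749 TPM. The results with all 50 libraries include both under their labels. The backfat library of S0355 had PENK at 0.981 and PCS1N at 2.33 TPM, below the lowest of the other 9 backfat libraries, with CBPE and 7B2 inside their range. The lymph library of S0235 had 7B2 at 46.8, CBPE at 4.98 and PCS1N at 8.30 TPM, inside the ranges of the other 9, with PENK listed at 0 and SCG3 at 0.142.

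A pair of muscle differences lay outside the members, chosen after their values were seen. PITX1, a positional factor also used in the pituitary, was higher in tenderloin than in loin by 3.45 (SE 0.40, limma adjusted p = 2.42e-08), and PNMT, the adrenaline-making enzyme, by 1.65 (SE 0.28, adjusted p = 2.28e-05).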
